A study of Mus musculus with 24 samples.

Results

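The 10 genes described here, Col1a1, Col1a2, Col3a1, Vim, Acta2, Timp1, Des, Dcn, Sparc and Lum, are genes of collagens, of the matrix around them and of the cytoskeleton of hepatic stellate cells. They were found in the deposited table by gene name, 1 locus each, among 31027 loci in all. Their levels were compared across 24 liver libraries of C57BL/6J mice, 3 in each of 8 groups that cross diet with genotype. The mice were fed a high fat diet or chow for 16 weeks. The Jnk1Jnk2 mice carried Alb-Cre with loxP-flanked alleles of both Jnk1 (Mapk8) and Jnk2 (Mapk9), the Jnk1 mice carried Alb-Cre with flanked Jnk1 alleles, the Jnk2 mice Alb-Cre with flanked Jnk2 alleles, and the control mice carried Alb-Cre alone. Albumin-driven Cre acts in hepatocytes, so in stellate cells both kinases are left in place by this design, and every group, controls included, expressed the recombinase. The labels do not say whether the 3 libraries of a group came from separate mice, and p-values therefore speak only of variation among these libraries, some of which may be technical.

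Hepatic stellate cells store vitamin A between hepatocytes and sinusoids. In injured liver they turn into contractile, matrix-producing cells that lay down type I and type III collagen, the fibrils of scar. JNK1 and JNK2 are stress-activated kinases whose loss from hepatocytes is studied in diet-induced fatty liver. RNA of whole liver holds all its cell types, and fewer cells of a type and less RNA per cell cannot be told apart in such bulk samples.

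The promoters of 3 of the genes that moved together in the comparisons below are shown here, so that the sequences before genes that changed in the same groups can be compared. Col1a1 and Sparc moved with them and are not shown. The 3 promoters were picked by hand and do not stand for the whole set. Each is the 200 bases before the RefSeq gene start on GRCm38.p6, 5′ to 3′ on the plus strand, with CCAAT (searched on both strands, so also as ATTGG) and TATAAA (searched on the strand of the gene) in capitals. Of the 10 members, 7 had an entry in the RefSeq promoter table. The windows shown lie at chr6:4505418-4505617 for Col1a2, at chr1:45311338-45311537 for Col3a1 and at chr2:13574111-13574310 for Vim. In the GENCODE annotation Col1a2 starts at 4504814 and Vim at 13573927, so both of these windows lie inside the GENCODE genes.
Col1a2: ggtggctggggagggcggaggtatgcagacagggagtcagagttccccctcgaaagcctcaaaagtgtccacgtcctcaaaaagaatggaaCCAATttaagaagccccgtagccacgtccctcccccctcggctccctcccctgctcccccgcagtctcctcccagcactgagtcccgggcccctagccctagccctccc
Col3a1: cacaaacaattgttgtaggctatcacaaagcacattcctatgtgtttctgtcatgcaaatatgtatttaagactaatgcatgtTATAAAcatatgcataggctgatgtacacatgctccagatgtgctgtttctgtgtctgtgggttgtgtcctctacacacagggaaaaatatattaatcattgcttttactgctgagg
Vim: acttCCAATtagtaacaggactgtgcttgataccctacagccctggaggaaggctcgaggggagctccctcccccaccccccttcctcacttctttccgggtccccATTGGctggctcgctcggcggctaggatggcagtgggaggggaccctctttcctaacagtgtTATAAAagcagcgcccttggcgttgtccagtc
CCAAT was found once in the Col1a2 window, 2 times in the Vim window and in 29.3% of 32851 mouse promoters of the same length. TATAAA was found in the Col3a1 and Vim windows and in 6.27% of all promoters. A match of letters is not a binding site.

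Levels are given in FPKM, in which fragments are divided by the length of the transcript and by the library's total, so genes of different length can be set side by side. Averaged over all 24 libraries, Dcn (decorin, a small proteoglycan that binds collagen fibrils) had 81.6 FPKM and stood far above the other members. Sparc (a collagen-binding matrix protein) had 16.6 FPKM, and Vim (vimentin, the intermediate filament of mesenchymal cells) had 11.7 FPKM. Next came Lum (lumican, a proteoglycan of the decorin family) with 4.45, Col3a1 (the chain of type III collagen) with 3.92 and Des (desmin, the intermediate filament of muscle and of rodent stellate cells) with 3.58 FPKM. Col1a2 and Col1a1 (the α2 and α1 chains of type I collagen) had 2.6 and 1.99 FPKM, Acta2 (smooth muscle actin, made by activated stellate cells) had 1.08 FPKM, and Timp1 (an inhibitor of matrix metalloproteinases) had 0.508 FPKM. The loci lie on mm10 at chr11:94936270-94951856 (Col1a1), chr6:4505697-4541543 (Col1a2), chr1:45311538-45349706 (Col3a1), chr2:13574311-13582826 (Vim), chr19:34240337-34255336 (Acta2), chrX:20870166-20874737 (Timp1), chr1:75360344-75367715 (Des), chr10:97479500-97518162 (Dcn), chr11:55394501-55420080 (Sparc) and chr10:97565501-97572703 (Lum). Acta2 and Sparc lie on the minus strand. Dcn and Lum are neighbours on chromosome 10, and the Timp1 locus overlaps Syn1, which averaged 0.135 FPKM.

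Changes are differences of log2(FPKM + 1) ± SE from 1 limma fit over all 24 libraries, a scale that understates the change of low genes. A locus was called at an adjusted p under 0.05 among the 10562 loci with a mean of at least 1 FPKM. Of the members, 9 passed that filter and Timp1 did not.

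Relative depth ranged from 0.3 in high fat Jnk1Jnk2 replicate 3 to 1 in chow control replicate 1, and the absolute depth is unknown. Mapk8 was at 0.845 to 2.47 FPKM in Jnk1 and Jnk1Jnk2 libraries, against 3.38 to 5.77 FPKM in the others, and Mapk9 was at 4.33 to 7.79 FPKM in Jnk2 and Jnk1Jnk2 libraries, against 9.01 to 12.0 FPKM in the others. The 3 high fat Jnk1Jnk2 libraries stood apart: the correlation of a locus's deviation with transcript length was -0.565, -0.621 and -0.561 in them, against -0.253 to 0.398 in the other libraries, and long transcripts read lower. Skeletal muscle markers (Acta1, Ckm, Myh4 and Tnnt3) summed to 406 FPKM in high fat Jnk1Jnk2 replicate 3, to 98.1 and 24.4 FPKM in chow Jnk1 replicates 1 and 2, and to 101 FPKM in chow Jnk2 replicate 1, while chow Jnk2 replicate 3 had 10.0 FPKM. Counts that rest on these libraries are given with and without the 4 above 20 FPKM.

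**Figure D1:**
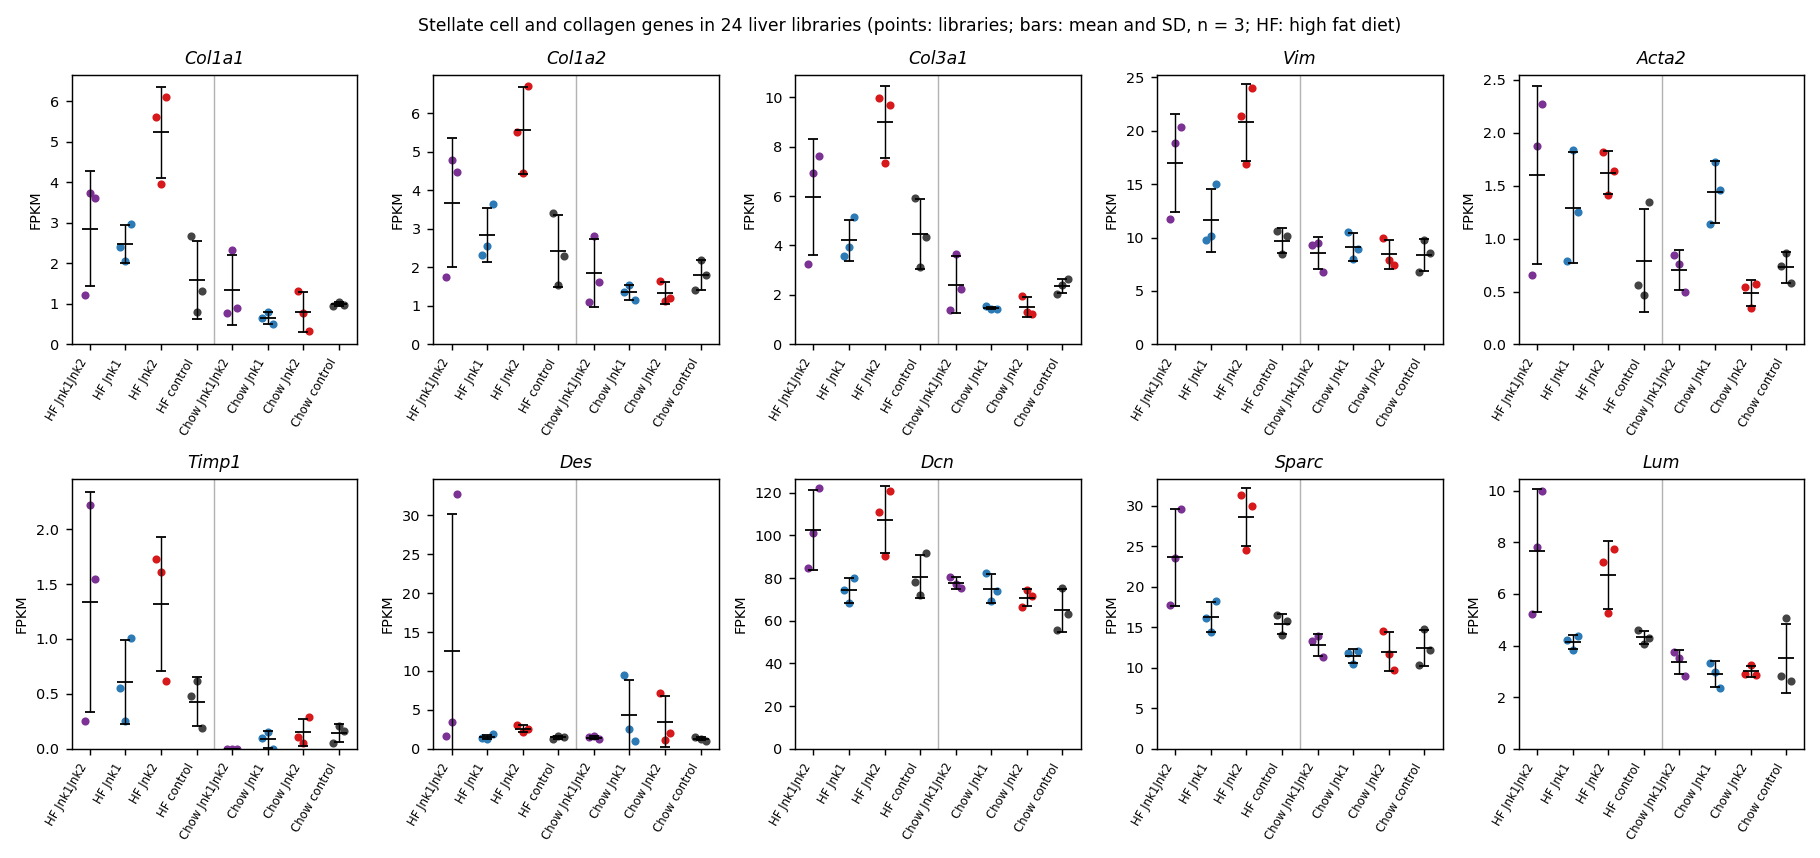
FPKM of the 10 genes in each of 24 liver libraries, by diet and genotype; points are libraries and bars the mean and SD of 3, and HF is high fat. The HF Jnk2 libraries are the highest group for Col1a1, at 3.96 to 6.11 FPKM, while the chow groups lie low and close together for most genes.

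The comparison of diets asks how the high fat diet changed these genes in each genotype. In Jnk2 livers 8 of the 9 tested members were higher on high fat than on chow, all but Des, and none was lower, against 26.0% of all tested loci called in either direction and 19.7% called higher. The median change of the 9 was 1.19, against 0.1 for all tested loci. The count was 8 in every leave-one-out fit and without the libraries that held muscle markers.

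On the log2(FPKM + 1) scale Col3a1 had the largest change in that comparison, while the ratio of mean FPKM, high fat over chow, was 5.95 for Col3a1 and 6.48 for Col1a1. Col3a1 had 9.98, 7.33 and 9.67 FPKM in high fat Jnk2 livers, against 1.97, 1.3 and 1.24 FPKM in chow Jnk2 livers. The groups were far apart, with every high fat library above every chow library, and the change was 2.0 ± 0.25 (limma, adjusted p = 2.62e-05).

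The type I collagen chains followed. Col1a1 had 5.61, 3.96 and 6.11 FPKM in high fat Jnk2 livers, against 1.32, 0.773 and 0.327 FPKM in chow Jnk2 livers. Col1a2 had 5.5, 4.44 and 6.71 FPKM in high fat Jnk2 livers, against 1.65, 1.13 and 1.2 FPKM in chow Jnk2 livers. For neither chain did the groups overlap, and the changes were 1.81 ± 0.29 for Col1a1 (limma, adjusted p = 0.000276) and 1.49 ± 0.26 for Col1a2 (limma, adjusted p = 0.000463). The FPKM of Col1a2 over that of Col1a1 had a median of 1.23 in the high fat libraries of all genotypes (0.971 to 1.95), against 1.83 in the chow libraries (1.21 to 3.66), a description with overlapping ranges.

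Among the matrix proteins that bind collagen, Sparc had 31.3, 24.5 and 30.0 FPKM in high fat Jnk2 livers, against 14.5, 11.7 and 9.75 FPKM in chow Jnk2 livers, a change of 1.19 ± 0.16 (limma, adjusted p = 6.02e-05). Lum had 7.24, 5.25 and 7.73 FPKM in high fat Jnk2 livers, against 2.9, 3.23 and 2.86 FPKM in chow Jnk2 livers. Its change was 0.94 ± 0.19 (limma, adjusted p = 0.00148). Dcn, high to begin with, had the smallest change of the 8, with 111, 90.3 and 121 FPKM in high fat Jnk2 livers against 66.4, 74.2 and 71.7 FPKM in chow Jnk2 livers (0.58 ± 0.14, limma, adjusted p = 0.00426). All 3 genes were higher in every high fat library than in any chow library.

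Of the cytoskeletal genes, Vim had 21.4, 16.9 and 24.0 FPKM in high fat Jnk2 livers, against 9.96, 7.88 and 7.41 FPKM in chow Jnk2 livers, a change of 1.2 ± 0.2 (limma, adjusted p = 0.000306). Acta2 had 1.82, 1.41 and 1.64 FPKM in high fat Jnk2 livers, against 0.542, 0.342 and 0.567 FPKM in chow Jnk2 livers, a change of 0.82 ± 0.22 (limma, adjusted p = 0.00969). Neither gene overlapped between the diets, although Acta2 stayed at a low level throughout. Des differed by -0.09 ± 0.67 (limma, adjusted p = 0.943), with a wide interval of -1.48 to 1.3. The fit pools the spread of a gene over all 24 libraries, and Des ranged up to 32.8 FPKM.

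**Figure D2:**
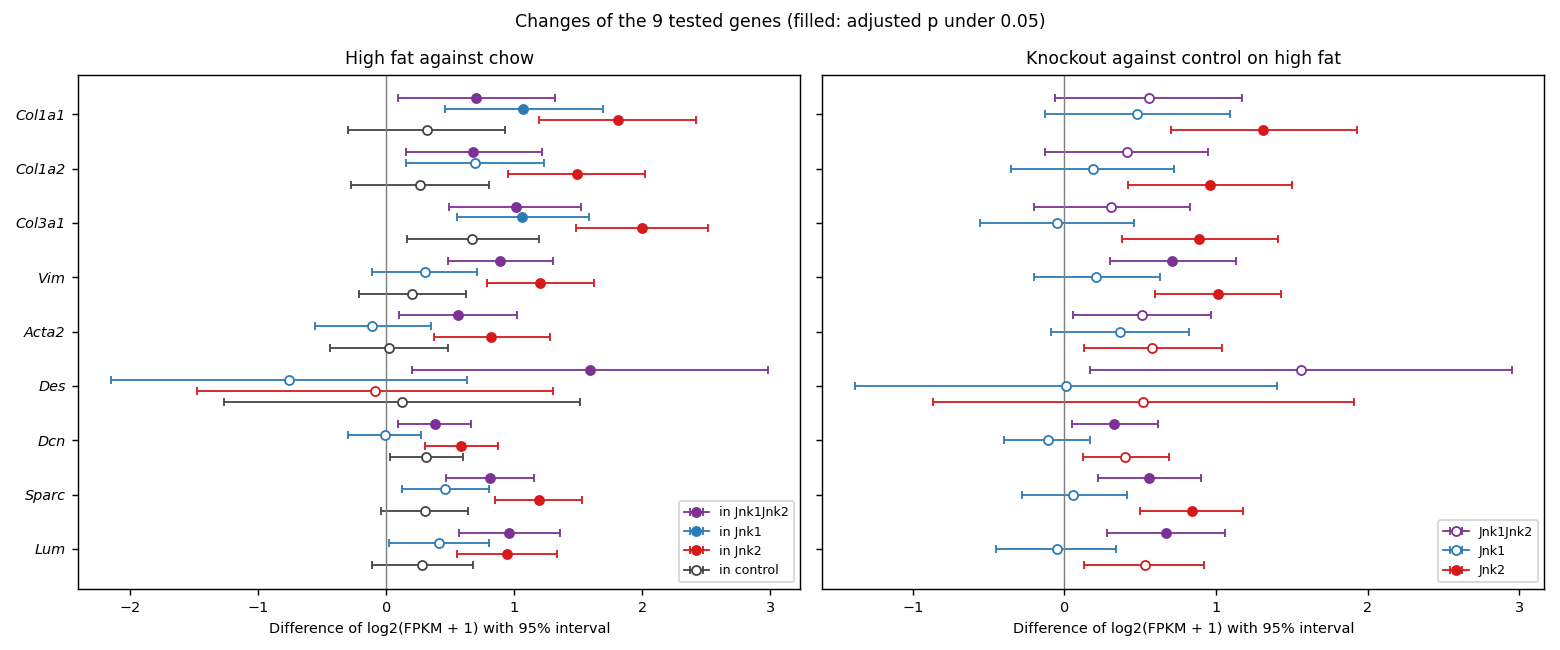
Differences of log2(FPKM + 1) with 95% intervals for the 9 tested genes, high fat against chow in each genotype at left and each knockout against control on high fat at right; filled points have an adjusted p under 0.05. In Jnk2 livers 8 of 9 points of the diet comparison are filled, and in control livers none is.

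In control livers, 0 of 9 members were called between the diets by limma, against 16.3% of all tested loci called and 10.1% called higher. Col3a1, at 5.92, 3.13 and 4.34 FPKM in high fat control livers against 2.05, 2.39 and 2.65 FPKM in chow control livers, did not overlap but missed the threshold (0.67 ± 0.25, limma, adjusted p = 0.0675). Unadjusted p-values under 0.05 were found for Col3a1 and for Dcn (0.31 ± 0.14, limma, adjusted p = 0.122). Col3a1 was called without high fat control replicate 2 (0.86, limma, adjusted p = 0.0466). In Jnk1 livers 2 of 9 members were higher on high fat, against 15.0% of all tested loci called and 9.22% called higher. These were Col1a1, with 2.4, 2.06 and 2.98 FPKM in high fat Jnk1 livers against 0.648, 0.801 and 0.495 FPKM in chow Jnk1 livers (1.07 ± 0.29, limma, adjusted p = 0.0185), and Col3a1, with 3.57, 3.92 and 5.14 FPKM in high fat Jnk1 livers against 1.54, 1.45 and 1.43 FPKM in chow Jnk1 livers (1.06 ± 0.25, limma, adjusted p = 0.00644). Neither overlapped. Both calls were lost without the muscle marker libraries, which leaves 1 chow Jnk1 library that is assumed to vary like the others (Col1a1 1.21, adjusted p = 0.0961, and Col3a1 1.09, adjusted p = 0.0763, by limma). Col1a1 alone lost its call without chow Jnk1 replicate 1 or 3 or high fat Jnk1 replicate 3, with adjusted p of 0.0506, 0.0602 and 0.0705 by limma.

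In Jnk1Jnk2 livers, 9 of 9 members were higher on high fat, against 56.9% of all tested loci called and 30.1% called higher. Lum had 5.23, 7.81 and 10.0 FPKM in high fat Jnk1Jnk2 livers, against 3.76, 3.5 and 2.83 FPKM in chow Jnk1Jnk2 livers (0.96 ± 0.19, limma, adjusted p = 0.000303). Vim had 11.7, 18.8 and 20.3 FPKM in high fat Jnk1Jnk2 livers, against 9.3, 9.5 and 6.8 FPKM in chow Jnk1Jnk2 livers (0.89 ± 0.2, limma, adjusted p = 0.000898). Neither gene overlapped between the diets. Sparc had 17.7, 23.6 and 29.6 FPKM in high fat Jnk1Jnk2 livers, against 13.3, 13.9 and 11.3 FPKM in chow Jnk1Jnk2 livers (0.81 ± 0.16, limma, adjusted p = 0.000372), again without overlap. The 3 collagen chains did overlap, because high fat Jnk1Jnk2 replicate 1 was low and chow Jnk1Jnk2 replicate 2 was high. The count was 4 without chow Jnk1Jnk2 replicate 3 or without high fat Jnk1Jnk2 replicate 3. It was also 4 without the muscle marker libraries, where Col1a1, Col1a2, Acta2, Des and Dcn were not called (adjusted p of 0.193, 0.155, 0.21, 0.0542 and 0.16 by limma), and 6 with no filter, where Timp1 was tested too.

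Averaged over the 4 genotypes with equal weight, 8 of 9 members were higher on high fat, all but Des, against 50.4% of all tested loci called and 31.5% called higher. The median change was 0.65, against 0.044 for all tested loci. Col3a1 averaged 5.9 FPKM on high fat, against 1.94 FPKM on chow (1.19 ± 0.12, limma, adjusted p = 3.66e-07). Acta2, at 1.33 FPKM on high fat and 0.839 FPKM on chow, had the largest adjusted p of the 8 (0.32 ± 0.11, limma, adjusted p = 0.0188) and lost its call with the length trend removed (0.19, limma, adjusted p = 0.126), with quantile normalization (0.27, limma, adjusted p = 0.0618) and without the muscle marker libraries (0.28, limma, adjusted p = 0.0858). Without those libraries the count was again 8, and Des was called (0.34, limma, adjusted p = 0.0167).

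The comparison of genotypes asks what loss of the kinases from hepatocytes changed on each diet, and the 3 knockouts share 1 set of control libraries. In high fat Jnk2 livers 5 of 9 members were higher than in high fat control livers and none was lower, against 12.4% of all tested loci called and 7.45% called higher. Col1a1 had 5.61, 3.96 and 6.11 FPKM in high fat Jnk2 livers, against 2.67, 0.797 and 1.31 FPKM in high fat control livers (1.31 ± 0.29, limma, adjusted p = 0.00614). Col1a2 had 5.5, 4.44 and 6.71 FPKM in high fat Jnk2 livers, against 3.42, 1.55 and 2.29 FPKM in high fat control livers (0.96 ± 0.26, limma, adjusted p = 0.0191). Neither chain overlapped between the groups, though control replicate 1 lay closest to the knockouts for both chains.

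Col3a1 averaged 8.99 ± 1.45 FPKM in high fat Jnk2 livers and 4.47 ± 1.4 FPKM in high fat control livers (SD, n = 3 each), a change of 0.89 ± 0.25 (limma, adjusted p = 0.0222). Vim averaged 20.8 ± 3.61 FPKM in high fat Jnk2 livers and 9.72 ± 1.14 FPKM in high fat control livers (SD, n = 3 each), a change of 1.01 ± 0.2 (limma, adjusted p = 0.00249). Sparc averaged 28.6 ± 3.62 FPKM in high fat Jnk2 livers and 15.5 ± 1.2 FPKM in high fat control livers (SD, n = 3 each), a change of 0.84 ± 0.16 (limma, adjusted p = 0.00238). In all of these, each Jnk2 library was above each control library. Not called were Dcn (0.4 ± 0.14, limma, adjusted p = 0.0572), Lum (0.53 ± 0.19, limma, adjusted p = 0.071), Acta2 (0.58 ± 0.22, limma, adjusted p = 0.0861) and Des (0.52 ± 0.67, limma, adjusted p = 0.65). Of the 10 members, 8 were higher in every high fat Jnk2 library than in any high fat control library, which 15.3% of all tested loci were. The 2 others were Timp1 and Dcn.

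The calls of Col1a2 and Col3a1 rested on few libraries, and the count fell to 3 without high fat control replicate 2 or high fat Jnk2 replicate 3. Col1a2 was not called without high fat control replicate 2 (0.77, adjusted p = 0.104) or high fat Jnk2 replicate 3 (0.84, adjusted p = 0.0674). Col3a1 was not called without high fat control replicate 2 (0.71, adjusted p = 0.118), high fat Jnk2 replicate 1 (0.82, adjusted p = 0.0739) or high fat Jnk2 replicate 3 (0.84, adjusted p = 0.0597), all by limma. When only the Jnk2 and control libraries on high fat were fitted, the count was 2, and Col1a1, Col1a2 and Col3a1 kept changes of 1.31, 0.96 and 0.89 but were not called (limma, adjusted p of 0.0794, 0.0987 and 0.101). Without the muscle marker libraries, none of which is in these 2 groups, the count was 6. Of all tested loci, 1.19% were called with only these 2 groups fitted and 13.5% without the muscle marker libraries.

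On chow, limma called 0 of 9 members in Jnk1Jnk2, in Jnk1 and in Jnk2 livers against control livers. Of all tested loci, 0.161%, 2.2% and 0.454% were called in these comparisons. A p that misses the threshold does not show that levels were equal. Col1a1, for instance, had 1.32, 0.773 and 0.327 FPKM in chow Jnk2 livers, against 0.959, 1.05 and 0.969 FPKM in chow control livers, a difference of -0.18 with an interval of -0.79 to 0.44. Col3a1 averaged 1.51 FPKM in chow Jnk2 livers and 1.47 FPKM in chow Jnk1 livers, against 2.36 FPKM in chow control livers. It did not overlap in either comparison (-0.43 ± 0.25 and -0.44 ± 0.25, limma, adjusted p = 0.472 and 0.456). Acta2 in Jnk2 livers (-0.22 ± 0.22) and Col1a1 in Jnk1 livers (-0.28 ± 0.29) were also lower than in control livers without overlap. The share of all tested loci without overlap on chow was not computed. The 1 unadjusted p under 0.05 was that of Acta2 in Jnk1 livers, at 1.14, 1.72 and 1.46 FPKM against 0.741, 0.869 and 0.58 FPKM in chow control livers (0.49 ± 0.22, limma, adjusted p = 0.3).

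The change with diet was larger in Jnk2 than in control livers for 5 of 9 members, by the interaction of diet with Jnk2, against 9.52% of all tested loci called and 6.18% called higher. The differences of the 2 diet effects were 1.49 ± 0.42 for Col1a1 (limma, adjusted p = 0.0306), 1.33 ± 0.35 for Col3a1 (adjusted p = 0.0232), 1.22 ± 0.36 for Col1a2 (adjusted p = 0.0402), 1.0 ± 0.28 for Vim (adjusted p = 0.0309) and 0.9 ± 0.23 for Sparc (adjusted p = 0.0212). These are the genes that were also higher in Jnk2 than in control livers on high fat, and both comparisons use the same high fat libraries. The interaction also takes in the chow differences of Jnk2 from control livers. Those were -0.18 for Col1a1, -0.43 for Col3a1, -0.26 for Col1a2, 0.01 for Vim and -0.06 for Sparc. Leaving out 1 library often ended the interaction calls. The count was 0 without chow Jnk2 replicate 3 (adjusted p from 0.0624 for Col3a1 to 0.091 for Col1a1) or high fat control replicate 2, 1 without chow control replicate 2 or 3, and 2 without high fat Jnk2 replicate 1 or 3 or chow Jnk2 replicate 2. Without the muscle marker libraries it was 4, and Col1a2 was not called (1.32, limma, adjusted p = 0.0568). For Jnk1 the interaction called 0 of 9 members by limma, with 0.0% of all tested loci called and 545 loci at an unadjusted p under 0.05. For Jnk1Jnk2 it called 0 of 9 members, against 34.9% of all tested loci, and Lum came nearest (0.68 ± 0.27, limma, adjusted p = 0.0536). That count was 4 without high fat Jnk1Jnk2 replicate 1, 2 without chow control replicate 1 and 1 without chow control replicate 3.

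With both kinases lost on high fat, 4 of 9 members were higher than in high fat control livers and none was lower, against 51.2% of all tested loci called, 19.6% higher and 31.6% lower. The median change of the 9 was 0.56, against -0.074 for all tested loci. These were Vim, with 11.7, 18.8 and 20.3 FPKM in high fat Jnk1Jnk2 livers against 10.6, 8.43 and 10.1 FPKM in high fat control livers (0.71 ± 0.2, limma, adjusted p = 0.00558), and Lum, with 5.23, 7.81 and 10.0 FPKM against 4.59, 4.07 and 4.3 FPKM in high fat control livers (0.67 ± 0.19, limma, adjusted p = 0.00607). Sparc (0.56 ± 0.16, limma, adjusted p = 0.00784) and Dcn (0.33 ± 0.14, limma, adjusted p = 0.0471) were also higher. Leaving out high fat Jnk1Jnk2 replicate 3 left 2 members called, and without all 4 muscle marker libraries only Vim was, with Lum at 0.48 (limma, adjusted p = 0.0619), Sparc at 0.39 (limma, adjusted p = 0.0572) and Dcn at 0.2 (limma, adjusted p = 0.263). Dcn also lost its call without high fat Jnk1Jnk2 replicate 2 or high fat control replicate 1 or 2 (limma, adjusted p of 0.0889, 0.114 and 0.163).

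The 3 collagen chains were not called in that comparison, and were called without 1 library or with the length trend removed. Col1a1 had 1.22, 3.74 and 3.61 FPKM in high fat Jnk1Jnk2 livers, against 2.67, 0.797 and 1.31 FPKM in high fat control livers, with overlap (0.56 ± 0.29, limma, adjusted p = 0.119). All 10 members were lowest in replicate 1 of the high fat Jnk1Jnk2 livers, and 9 of 9 were called without it. Without replicate 1, Col1a1, Col1a2 and Col3a1 were called at 0.92, 0.76 and 0.63 (limma, adjusted p of 0.0116, 0.0123 and 0.0285). Col1a1 was also called without high fat control replicate 1 (0.84, limma, adjusted p = 0.0331). The longest transcripts of Col1a1, Col1a2 and Col3a1 have 5930, 5348 and 5564 bases. With the trend of each library with length removed, the 3 genes were called at 1.0, 0.8 and 0.72 (limma, adjusted p of 0.00743, 0.0132 and 0.0174). Of the 10205 loci tested under that setting, 36.7% were called and 18.2% called higher. The part of transcript length in the changes of the collagen genes was not tested.

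Set against the single knockouts on high fat, Jnk1Jnk2 livers had 4 of 9 members higher than Jnk1 livers (Dcn, Lum, Sparc and Vim), against 56.6% of all tested loci called and 22.9% called higher. The count against Jnk1 livers was 7 without high fat Jnk1Jnk2 replicate 1, 1 without replicate 3 of that group and 2 without high fat Jnk1 replicate 2. Against Jnk2 livers they had 1 of 9 lower, Col1a1 (-0.75 ± 0.29, limma, adjusted p = 0.0404), against 48.5% of all tested loci called and 33.2% called lower. That call was lost without high fat Jnk2 replicate 1 or 3 or high fat Jnk1Jnk2 replicate 1 (adjusted p of 0.0997, 0.126 and 0.26 by limma), while 3 members were lower without high fat Jnk1Jnk2 replicate 2 or 3, and 2 without high fat Jnk2 replicate 2. With the length trend removed the difference of Col1a1 was -0.37 (limma, adjusted p = 0.324). Jnk1 livers on high fat had 0 of 9 members called against control livers by limma, with 0.227% of all tested loci called and no member at an unadjusted p under 0.05. The intervals were still wide, for Col1a1 from -0.13 to 1.09. Over the 8 groups, high fat Jnk2 had the highest mean of 7 members and high fat Jnk1Jnk2 that of the other 3, Lum, Timp1 and Des. For Des that mean rests on 1 library, at 32.8 FPKM, which held skeletal muscle markers. The high fat Jnk1Jnk2 and Jnk2 means were close for Timp1 (1.34 and 1.31 FPKM) and for Acta2 (1.6 and 1.63 FPKM).

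Timp1 was too low to be tested. It had 0.249, 2.22 and 1.55 FPKM in high fat Jnk1Jnk2 livers, 0.555, 0.253 and 1.01 FPKM in high fat Jnk1 livers, 1.73, 1.61 and 0.613 FPKM in high fat Jnk2 livers, and 0.483, 0.62 and 0.185 FPKM in high fat control livers. On chow it was listed at 0 in all 3 Jnk1Jnk2 livers, had 0.101, 0.156 and 0 FPKM in Jnk1 livers, 0.103, 0.056 and 0.288 FPKM in Jnk2 livers, and 0.0521, 0.209 and 0.166 FPKM in control livers. High fat and chow did not overlap in the 3 knockouts and did in control livers. Read in steps of 1 fragment, not scaled for depth, its values stood for 24.9, 15.9 and 7.99 fragments in high fat Jnk2 livers. They stood for 2.98, 30.9 and 8.97 fragments in high fat Jnk1Jnk2 livers, against 0 in chow Jnk1Jnk2 livers. Chow libraries held at most 5.02 fragments. Below that lay high fat control replicate 3 (1.99), high fat Jnk1 replicate 2 (2.98) and high fat Jnk1Jnk2 replicate 1. With no filter on low values Timp1 was called between the diets in Jnk1Jnk2 (1.12, limma, adjusted p = 0.00252) and Jnk2 livers (0.98, limma, adjusted p = 0.0164).

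Des was high where skeletal muscle markers were. It had 1.6, 3.39 and 32.8 FPKM in high fat Jnk1Jnk2 livers, against 1.48, 1.59 and 1.2 FPKM in chow Jnk1Jnk2 livers, and the third high fat library alone carried the group. The other high values were 9.51 FPKM in chow Jnk1 replicate 1 and 7.22 FPKM in chow Jnk2 replicate 1. In these same 3 libraries Acta1, the actin of skeletal muscle, had 213 FPKM, 48.5 FPKM and 48.2 FPKM, and it was listed at 0 in several others. The high fat effect on Des in Jnk1Jnk2 livers was 1.59 ± 0.67 (limma, adjusted p = 0.0478), and 0.48 without the muscle marker libraries (limma, adjusted p = 0.0542). Elsewhere on high fat Des had 1.39, 1.27 and 1.85 FPKM in Jnk1 livers, 3.0, 2.11 and 2.56 FPKM in Jnk2 livers, and 1.25, 1.61 and 1.56 FPKM in control livers.

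**Figure D3:**
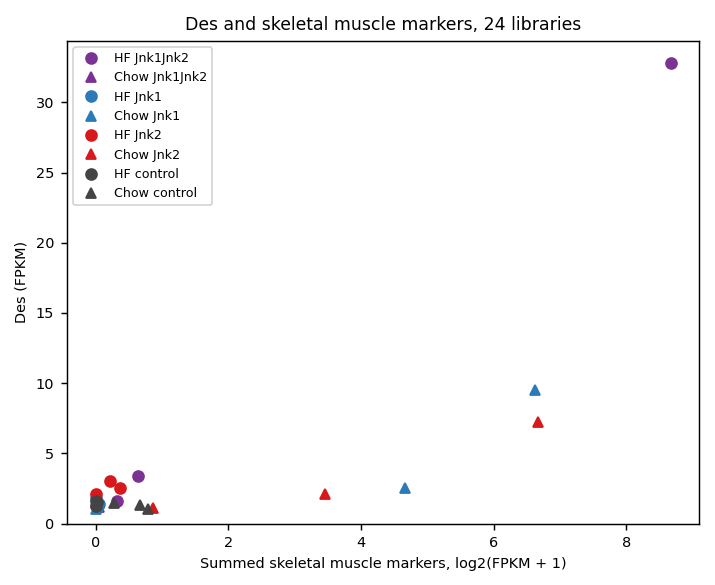
Des in FPKM against the summed FPKM of 4 skeletal muscle markers, as log2(FPKM + 1), in 24 libraries; circles are high fat and triangles chow, and colours are genotypes. The 3 libraries with Des at 7.22, 9.51 and 32.8 FPKM are also those with the highest sums.

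Other genes of the matrix are given against the same background, 12.4% of all tested loci called and 7.45% called higher in high fat Jnk2 against control livers. There 4 of 9 tested genes of the other collagens were higher and 0 lower, among them the basement membrane chains Col4a1 (0.88 ± 0.15, limma, adjusted p = 0.000892) and Col4a2 (0.69 ± 0.15, limma, adjusted p = 0.00559) and the type VI chain Col6a2 (0.77 ± 0.16, limma, adjusted p = 0.00393). Of the genes that fold and crosslink collagen, 3 of 12 were higher, including Serpinh1, the collagen chaperone HSP47 (0.51 ± 0.15, limma, adjusted p = 0.0341). In the list of other matrix proteins, 2 of 9 were higher and 1 was lower. Biglycan, Bgn, was higher (0.9 ± 0.16, limma, adjusted p = 0.00142), while fibronectin, Fn1, which hepatocytes make in quantity, averaged 97.5 FPKM in high fat Jnk2 livers against 244 FPKM in high fat control livers (-1.31 ± 0.16, limma, adjusted p = 2.75e-05). The medians of these 3 lists were 0.51, 0.3 and 0.31, against 0.022 for all tested loci.

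Among the enzymes and signals, against that background of 12.4% called and 7.45% called higher, 3 of 7 matrix proteases and inhibitors were higher in high fat Jnk2 against control livers, including the macrophage elastase Mmp12 (1.77 ± 0.45, limma, adjusted p = 0.0134) and Timp3 (0.68 ± 0.14, limma, adjusted p = 0.00425). Of 13 genes of TGF-beta and PDGF signalling, 2 were higher, a share near the background: the cytokine gene Tgfb1 (0.79 ± 0.16, limma, adjusted p = 0.00388) and the stellate cell receptor gene Pdgfrb (0.51 ± 0.14, limma, adjusted p = 0.0194). Of 13 genes of the actin cytoskeleton, 3 were higher. None of these 3 lists had a lower member.

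In high fat Jnk1Jnk2 against control livers, 51.2% of all tested loci were called, 19.6% higher and 31.6% lower. There 0 of 9 other collagens were higher and 3 lower, a share of lower calls near the background, with Col18a1 at -0.81 ± 0.11 (limma, adjusted p = 7.8e-06). Next, 0 of 13 genes of TGF-beta and PDGF signalling were higher and 7 lower, with Smad4 at -0.71 ± 0.11 (limma, adjusted p = 3.28e-05). Fn1 was lower there too (-1.79 ± 0.16, limma, adjusted p = 1.97e-07), while matrix Gla protein, Mgp, was higher (1.14 ± 0.27, limma, adjusted p = 0.0019). The part of transcript length in these differences was not tested list by list.

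In Jnk2 livers on high fat against chow, where 26.0% of all tested loci were called and 19.7% called higher, 5 of 9 other collagens were higher and 0 lower, led by Col4a1 (1.21 ± 0.15, limma, adjusted p = 2.74e-05) and Col14a1 (1.13 ± 0.18, limma, adjusted p = 0.000199). For folding and crosslinking, 6 of 12 genes were higher, with Serpinh1 at 1.4 ± 0.15 (limma, adjusted p = 9.12e-06) and Pcolce, an enhancer of procollagen processing, at 1.03 ± 0.18 (limma, adjusted p = 0.00055). Periostin, Postn, was among 6 of 9 other matrix proteins that were higher (1.11 ± 0.16, limma, adjusted p = 0.000109), and Fn1 was the 1 that was lower (-0.96 ± 0.16, limma, adjusted p = 0.000263). In control livers, where 16.3% of all tested loci were called, 0 of 9 other collagens were called by limma, though Serpinh1 (0.81 ± 0.15, limma, adjusted p = 0.00146) and Fn1 (0.81 ± 0.16, limma, adjusted p = 0.00183) were higher on high fat.

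Markers of liver cell types moved in the same libraries. In the sum of 13 defining markers of stellate cells, Ecm1 and Colec11 weigh most. Their means over the 24 libraries were 54.9 and 19.6 FPKM, while Reln had 10.1, Lrat 2.0 and Pdgfrb 1.2 FPKM. The 13 markers were above 0 in all libraries. They summed to 126 to 144 FPKM in high fat Jnk1Jnk2 livers, 109 to 124 FPKM in high fat Jnk1 livers, 157 to 172 FPKM in high fat Jnk2 livers and 96.3 to 136 FPKM in high fat control livers, and on chow to 74.8 to 106 FPKM over all genotypes. In high fat Jnk2 against control livers, where 12.4% of all tested loci were called and 7.45% called higher, 5 of 12 tested ones were higher and 0 lower, with Ecm1 at 0.62 ± 0.13 (limma, adjusted p = 0.00481) and Cygb at 0.78 ± 0.16 (limma, adjusted p = 0.00399). Endothelial markers summed to 105 to 108 FPKM in high fat Jnk2 livers and 68.7 to 73.2 FPKM in high fat control livers, and 7 of 8 were higher and 0 lower, with Eng at 0.85 ± 0.1 (limma, adjusted p = 2.09e-05). Macrophage and Kupffer cell markers summed to 194 to 283 FPKM in high fat Jnk2 livers and 180 to 212 FPKM in high fat control livers, and 3 of 11 were higher, with Cd68 at 0.7 ± 0.19 (limma, adjusted p = 0.0195). Markers of portal fibroblasts summed to 4.72 to 5.8 FPKM in high fat Jnk2 livers and 3.7 to 4.18 FPKM in high fat control livers. Vascular smooth muscle markers (6 genes) summed to 5.27 to 6.99 FPKM in high fat Jnk2 livers. In high fat control livers they summed to 4.15 to 4.81 FPKM. High fat Jnk1Jnk2 livers had sums of 254 to 294 FPKM for macrophages and 84.5 to 99.7 FPKM for endothelial cells. Their sums were 3.67 to 6.5 FPKM for portal fibroblasts and 4.46 to 9.71 FPKM for smooth muscle. Hepatocyte markers, in which Alb and Apoa1 weigh most, summed to 37800 to 39400 FPKM in high fat Jnk2 livers and 29800 to 36600 FPKM in high fat control livers. Alb was listed at 0 in 4 of the 24 libraries, none of them in these 2 groups. Mesothelial markers, mostly Krt18, summed to 114 to 131 FPKM and 88.5 to 110 FPKM in the same groups, and cholangiocyte markers to 2.71 to 5.85 FPKM and 2.02 to 2.72 FPKM. The part of these cell types in the changes of the collagen genes was not tested.

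**Figure D4:**
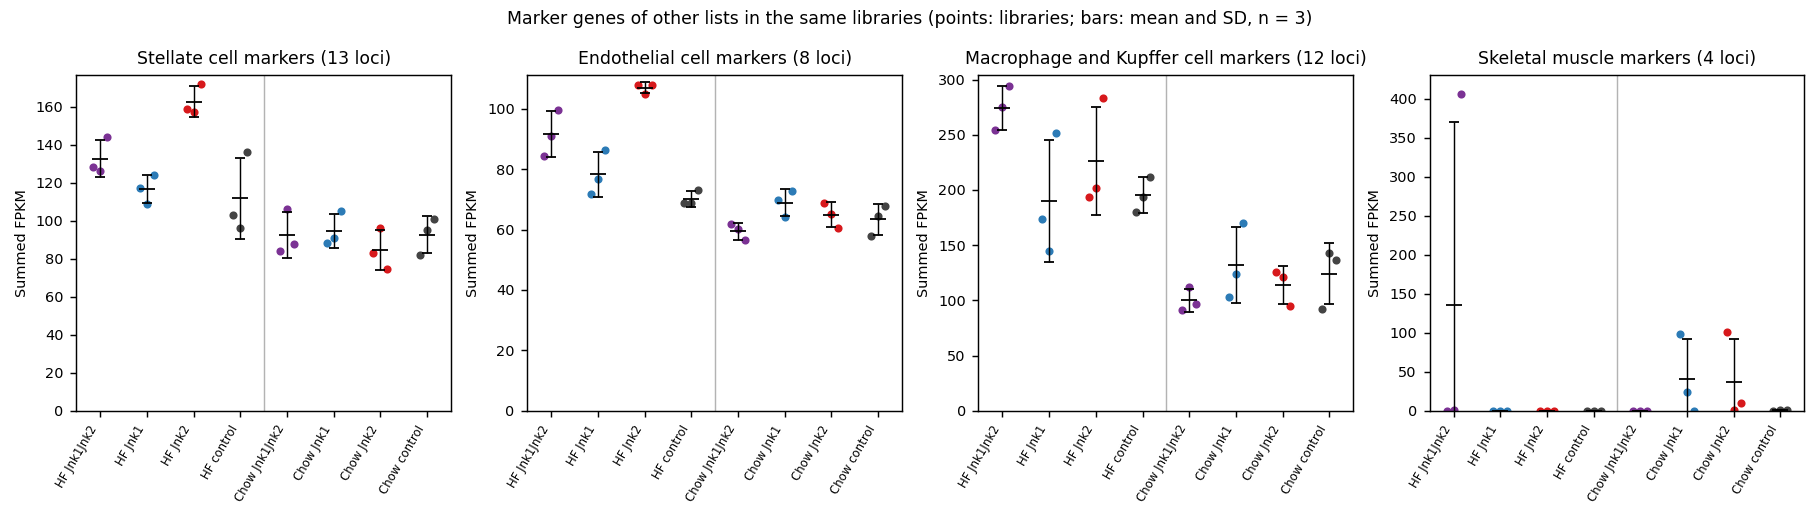
Summed FPKM of the marker genes of stellate cells, endothelial cells, macrophages with Kupffer cells, and skeletal muscle in each library; points are libraries and bars the mean and SD of 3. Stellate cell markers are at 157 to 172 FPKM in HF Jnk2 libraries, above all others, and skeletal muscle markers are near 0 in most libraries and reach 406 FPKM in 1. Ecm1 and Colec11 weigh most in the stellate cell sums.

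As a description of likeness over the 24 libraries, which share their groups and depths, the loci closest to Col1a1 were Ccdc80, Col6a2 and Emilin1, with Pearson r of 0.912, 0.912 and 0.909. Those closest to Col3a1 were Emilin1, Sod3 and Anxa2 (0.939, 0.928 and 0.928), and to Vim Ccdc80, Uap1l1 and Cln6 (0.947, 0.946 and 0.945). Timp1 was closest to Mmp12, Dbnl and Atf3 (0.897, 0.882 and 0.879), and Acta2 less closely to Atp6v0c, Slc9a3r2 and Abcb8 (0.818, 0.806 and 0.805).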

How the data were processed

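Liver RNA for 24 libraries was extracted with RNeasy columns, per the labels' protocols, and samples were grouped by title. TopHat, Cufflinks and Cuffdiff on mm10 are named in the submitters' processing notes, with versions that are not given in the sources used here. Per locus and library, the authors deposited 1 FPKM value. Locus starts, 0-based in the table, are printed 1-based.

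Group means of log2(FPKM + 1) in 8 groups were fitted with limma 3.58.1 in R 4.3.3 (trend option), on the 10562 loci with a mean of at least 1 FPKM, with Benjamini-Hochberg adjustment within each contrast over these loci. The fit was tested on simulated data. FPKM are not counts, so no count test was run, no interval for counting error is given, and 0 may be a failed estimate. The members and gene lists were chosen with earlier results of these data known, as was the rule for named genes: all members, up to 3 called genes per list and contrast by smallest p, and the 3 loci most alike by Pearson r for 5 members. Alternatives were another pseudocount, no filter, size factors, quantile normalization, array weights, a replicate block, removal of the length trend, only the groups compared, each library left out, and, chosen after seeing the data, leaving out 4 libraries with muscle markers.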

Additional observations from a re-analysis of the deposited data

Results flagged for a closer look

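The diet effect differed between Jnk2 and control livers by a test of the difference itself for 5 genes, each larger in Jnk2 livers on the log2(FPKM + 1) scale. The differences were 1.49 for Col1a1, 1.22 for Col1a2, 1.33 for Col3a1, 1.0 for Vim and 0.9 for Sparc. These calls were not stable: none was left without chow Jnk2 replicate 3 or high fat control replicate 2, 2 were left with no filter on low values, and Col1a2 was lost without the muscle marker libraries. In Jnk2 livers all 3 high fat libraries lay above all 3 chow libraries for each of these genes. That describes the diet effect within Jnk2 livers and not its difference from control livers. The share of all tested loci without such overlap was not computed.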

How the results depend on the processing

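No result changed sign among called values, and over all alternatives 2275 of 2475 values kept their side of the threshold, 74 gained a call and 126 lost one. Values not called in the main fit could only gain a call. The 126 losses therefore stand against fewer than 2475 values, and the share of calls lost is larger than this total shows. The counts of members called that moved by more than 1.5 times are as follows, and the cause was not tested. In Jnk1Jnk2 against control livers on high fat the count was 7 with quantile normalization or the length trend removed, 2 with only the groups compared and 1 without the muscle marker libraries. Of all tested loci, 48.4%, 36.7%, 37.8% and 48.1% were called under these settings, against 51.2% in the main fit. In Jnk2 against control livers on high fat the count was 8 with array weights and 2 with only the groups compared. Array weights called 26.7% of all tested loci, 14.2% higher. Only the groups compared called 1.19%, 0.568% higher, against 12.4% and 7.45% in the main fit. In Jnk1Jnk2 against Jnk1 livers the count was 2 with only the groups compared and 1 without the muscle marker libraries. These settings called 51.2% and 53.2% of all tested loci, against 56.6% in the main fit. In Jnk1Jnk2 against Jnk2 livers the count was 3 without the muscle marker libraries and 0 under the other 8 settings. Of all tested loci, 46.8% were called without those libraries and 26.0% to 48.6% under the other 8. High fat against chow gave 1 in control livers with array weights or the length trend removed, 4 in Jnk1 livers with only the groups compared and 0 without the muscle marker libraries, and 4 in Jnk1Jnk2 livers under each of these 2 settings. For diet in control livers, array weights called 29.0% of all tested loci and length removal 20.8%. Only the groups compared called 8.95% in Jnk1 and 51.8% in Jnk1Jnk2 livers, and 53.5% were called in Jnk1Jnk2 livers without the muscle marker libraries. The interaction with Jnk1Jnk2 gave 3 with size factors, 1 with quantile normalization and 2 with array weights, and that with Jnk2 gave 2 with no filter. Of all tested loci, 38.5%, 33.8%, 45.9% and 3.73% were called in these 4 fits.

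With each library left out, counts ranged from 2 to 9 for Jnk1Jnk2, 0 to 0 for Jnk1 and 3 to 7 for Jnk2 against control livers on high fat, 0 to 0 for each on chow, 1 to 7 for Jnk1Jnk2 against Jnk1 and 0 to 3 against Jnk2. For high fat against chow they ranged from 4 to 9 in Jnk1Jnk2, 1 to 2 in Jnk1, 8 to 8 in Jnk2, 0 to 1 in control livers and 8 to 8 on average, and for the interactions from 0 to 4 (Jnk1Jnk2), 0 to 0 (Jnk1) and 0 to 5 (Jnk2).

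Among 84 pairs of same-numbered libraries, deviations from the group mean correlated above 0.1 in 8, with a median of -0.0217 and a highest of 0.329. Pairs with different numbers were not computed, so whether equal numbers mark a shared batch was not tested. With the replicate block 4 members were called in Jnk1Jnk2 and 5 in Jnk2 against control livers on high fat, and 0 in Jnk1Jnk2 against Jnk2 livers. Of all tested loci, 50.7%, 12.0% and 47.8% were called there. For high fat against chow in Jnk1Jnk2 livers the block gave 7, without Col1a1 (limma, adjusted p = 0.0621) and Des (0.0559), and 56.7% of all tested loci.

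Size factors moved the split of all called loci (higher and lower, beside the main split): 2783 and 2815 against 2072 and 3338 in Jnk1Jnk2 and control livers on high fat, 2315 and 2593 against 1619 and 3502 in Jnk1Jnk2 and Jnk2 livers, 3104 and 3062 against 2415 and 3568 in Jnk1Jnk2 and Jnk1 livers, 1295 and 1201 against 2076 and 675 for diet in Jnk2 livers, 917 and 1008 against 1063 and 654 in control livers, 847 and 912 against 974 and 614 in Jnk1 livers, 2628 and 2824 against 3324 and 2004 on average, and 556 and 511 against 653 and 352 for the interaction with Jnk2. Their median shift was -0.107 for diet in Jnk2 livers and 0.11 for Jnk1Jnk2 against Jnk2 livers. Absolute depth is unknown, and the reading of Timp1 in fragments takes its smallest step as 1 fragment. No counting error was set for low genes such as Acta2 and Timp1.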
